A study of Mus musculus with 4 samples.

Results

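The 38 genes described here are 27 immediate-early genes and 11 heat-shock genes, and each symbol matched 1 of the 52636 rows of the gene table. Their mRNA was counted in luminal epithelial cells, the cells that line the ducts of the mammary gland, of C57BL/6N mice aged 6 weeks. The thoracic and abdominal glands of 3 Erbb3 +/+;MMTV-Cre mice were pooled as the WT group, and those of 3 Erbb3 V943R/V943R;MMTV-Cre mice were pooled as the mutant group. Each pool was sequenced as 2 droplet libraries with the Chromium 3′ chemistry. They are named A and B within a genotype, and A of WT has no link to A of the mutant. Where a genotype is given with 2 values, they are those of libraries A and B in that order. Erbb3 encodes a receptor that activates its partner ERBB2, and the V943R change lies in the surface through which it does so. Both groups carry Cre recombinase under the promoter of the mouse mammary tumor virus, which is active in mammary epithelium. The V943R allele is conditional. It gives wild-type Erbb3 until Cre cuts out a cassette, and only then the mutant form. The study found the V943R allele expressed in mammary epithelial cells of such mice, by RT-PCR and sequencing. Which single cells of the mutant pool had lost the cassette was not examined here. The word mutant below therefore names the pool and not a checked state of each cell. With 1 pool per genotype the libraries are technical repeats, so no test between genotypes was made and every interval below covers counting error only.

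Immediate-early genes are transcribed within minutes of a stimulus, such as a growth factor that acts through its receptor and the ERK cascade, and they need no new protein for it. Many encode transcription factors of the FOS, JUN, EGR, KLF and NR4A families, and others encode brakes on signaling such as the phosphatase DUSP1, the RNA-binding protein ZFP36 and the cytokine inhibitor SOCS3. Heat-shock genes encode chaperones, some made at all times (Hspa8, Hsp90ab1) and some induced through the factor HSF1 when proteins unfold (Hspa1a, Hspa1b, Dnajb1). Both classes are also known to be raised while a tissue is taken apart. Every cell here had passed through collagenase, mechanical dissociation, trypsin, an enrichment of epithelial cells and a cell sort, so mRNA present in the gland and mRNA made during handling cannot be told apart.

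The libraries held 6849 to 9627 cells and 30019745 to 38009351 UMIs (unique molecular identifiers, the tags by which captured mRNA molecules were counted). The median depth was 3154 and 3677 UMIs per WT cell and 3662 and 4027 UMIs per mutant cell. The median mitochondrial share was 0.221% to 0.244%. Any pair of libraries shared 71 to 111 cell barcodes. Erbb3 itself stood at 60.9 and 63.3 counts per 1000000 UMIs (CPM) in WT and at 29.8 and 30.8 CPM in the mutant. Transcripts of a cassette left in place end in human growth hormone sequence, and how they were counted was not examined. The deposited class of each cell was used as it stands: luminal progenitor (LP, clusters 1 and 2), luminal intermediate (LI, cluster 3) or mature luminal (ML, clusters 4 to 11), with clusters 12 and 13 outside these classes. The 5 progenitor markers summed to 2953 to 3298 CPM in the LP class and to 64.0 to 66.6 CPM in the ML class, and the 5 mature luminal markers to 3243 to 4028 CPM in the ML class and 456 to 593 CPM in the LP class. Over all cells the mature luminal markers were lower in the mutant libraries (2755 and 2955 CPM against 3358 and 3506 CPM), and cluster 11 held 2863 WT and 670 mutant cells. The summed markers of basal, immune, endothelial and fibroblast cells reached at most 84.7 CPM in any library. Their part in the results below was not tested.

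The AP-1 genes, whose products pair as FOS and JUN proteins on DNA, dominated the immediate-early list. Fos was the most abundant of the 38 genes, with 6931 and 7355 CPM in WT and 5806 and 6253 CPM in the mutant. Both mutant libraries lay below both WT libraries. Fos lies on chromosome 12 (GRCm38, 85473890 to 85477273, plus strand). Jun stood at 4547 and 4678 CPM in WT and 3636 and 3739 CPM in the mutant. Junb, at 3106 and 3209 CPM in WT, had 2460 and 2544 CPM in the mutant. Jund, the family member known for steady expression, had 3124 and 2954 CPM in WT and 2788 and 2588 CPM in the mutant. In each of these genes both mutant libraries were the lower ones. The smaller members of the family were far less abundant, with Fosb at 770 CPM, Fosl2 at 30.1 CPM and Fosl1 at 1.75 CPM over the WT pool. UMIs were read at the 3′ end of transcripts, so these levels were not divided by transcript length and the order between genes also carries how well each 3′ end was captured.

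The next most abundant immediate-early genes were a stress-responsive repressor, an inhibitor of cytokine signaling and a small nuclear protein. Atf3, the repressor, stood at 2345 and 2358 CPM in WT and 1883 and 1927 CPM in the mutant. Socs3, the inhibitor, stood at 1725 and 1745 CPM in WT and 1515 and 1555 CPM in the mutant. Ier2 had 1525 and 1560 CPM in WT and 1320 and 1342 CPM in the mutant. For all 3 genes the libraries of a genotype lay close together, and both WT libraries lay above both mutant libraries. Among the heat-shock genes Hsp90ab1, the constitutive HSP90, led with 2821 and 2889 CPM in WT and 2708 and 2877 CPM in the mutant, and its libraries overlapped. Hsp90ab1 alone made up 63.9% of the summed heat-shock level of the WT pool. The remaining heat-shock genes ranged from 13.2 CPM (Hsph1) to 457 CPM (Hspb1, the small heat-shock protein HSP27) in WT. Summed, the 27 immediate-early genes took 3.10% and 3.19% of all UMIs in WT and 2.62% and 2.70% in the mutant, and the 11 heat-shock genes took 0.444% and 0.450% against 0.413% and 0.432%.

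**Figure D1:**
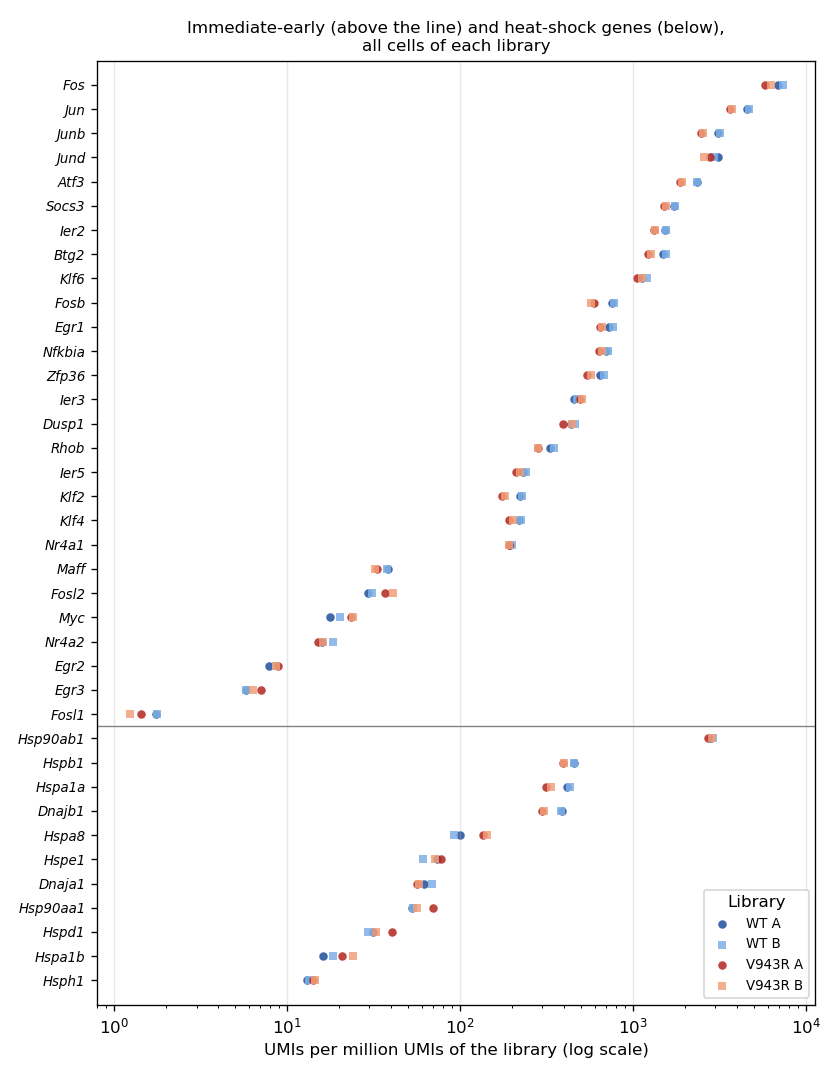
Level of each of the 38 genes in the 4 libraries, all cells, in UMIs per 1000000 on a log axis, with immediate-early genes above the line and heat-shock genes below it. Levels span from 1.75 CPM (Fosl1) to 7152 CPM (Fos) in the WT pool, and the libraries of 1 genotype mostly lie on top of each other.

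RefSeq promoter windows (GRCm38.p6, 250 bases before to 50 bases after a gene's start) were at hand for 30 of the 38 genes, and not for Egr1, Egr3, Hsp90ab1, Fosl1, Ier2, Myc, Hsp90aa1 and Hspa8. The 150 bases before the start of Fos (chr12:85473740-85473889, plus strand) and of Junb (chr8:84978749-84978898, minus strand) are shown as those of a FOS and a JUN gene of high level that were lower in the mutant in every class. Capitals mark TGACG, the left part of a cAMP response element, TATAAA, the TATA box, and CCAAT, the CCAAT box, on either strand.
Fos: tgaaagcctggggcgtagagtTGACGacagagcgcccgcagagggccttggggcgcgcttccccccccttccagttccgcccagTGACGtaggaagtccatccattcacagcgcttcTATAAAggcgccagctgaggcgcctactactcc
Junb: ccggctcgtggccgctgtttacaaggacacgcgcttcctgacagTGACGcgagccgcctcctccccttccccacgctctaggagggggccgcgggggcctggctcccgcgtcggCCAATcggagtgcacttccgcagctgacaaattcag
TGACG was found on either strand in the windows of 12 of the 22 immediate-early and 5 of the 8 heat-shock genes with a window, against 23.0% of 27025 genes. The full element TGACGTCA, which contains it, was in Dusp1, Btg2 and Maff, against 2.03% of genes. GCGGGGGCG, the site of EGR proteins, was in 7 of the 22 immediate-early windows against 3.31% of genes. The CArG box of serum response factor was in 2 (Egr2 and Zfp36) against 1.81%. TATAAA was in 4 (Fos, Junb, Nr4a2 and Nfkbia) against 15.7%, and that of Junb lies outside the 150 bases printed. The AP-1 site TGANTCA was in 0 of the 30 windows against 8.97% of genes, which says only that these letters are not in these windows. These matches describe the windows and are no evidence of binding.

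The immediate-early list split by luminal class. In WT cells 16 of the 27 genes were at least 1.5-fold higher in LP than in ML cells and 1 gene, Socs3, was at least 1.5-fold lower, against 25.1% and 16.3% of the 15320 genes with at least 50 UMIs in the class with more. Of the 11 heat-shock genes 2 were at least 1.5-fold higher in LP and 3 in ML. Since the classes were drawn from these same cells, the class differences are a description without a test. The nuclear receptor Nr4a2 and the zinc-finger factor Egr3 were the most class-bound members. Nr4a2 stood at 106 CPM in WT LP cells, 35.4 CPM in LI cells and 1.18 CPM in ML cells. Egr3 stood at 36.5 CPM in LP, 11.1 CPM in LI and 0.405 CPM in ML cells, where it rested on 23 UMIs. Both were thus 90.1-fold higher in LP than in ML cells. Nr4a1, the related receptor, was broader, with 686, 309 and 109 CPM, a ratio of 6.30. The ratio of LP to ML was 9.22 for Fosl1, 4.90 for Egr2, 3.60 for Maff, 3.10 for Myc, 2.12 for Egr1 and 2.07 for Fosb. It was 1.57 for Fos, 1.54 for Junb, 1.22 for Jund and 0.913 for Jun. For Fos and Junb every LP value of the 4 libraries, WT or mutant, lay above every ML value. Within each of the 4 libraries Jund was higher and Jun lower in LP, but their LP and ML values overlapped between the genotypes.

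Socs3 and the inducible chaperone genes Hspa1a, Hspa1b and Dnajb1 ran the other way. Socs3 stood at 519 CPM in LP, 1571 CPM in LI and 1943 CPM in ML cells of the WT pool, 3.75-fold higher in ML. Hspa1a, the main inducible HSP70, had 127, 351 and 482 CPM, and its neighbor and near copy Hspa1b had 5.40, 16.2 and 19.3 CPM, which made them 3.8-fold and 3.58-fold higher in ML. Dnajb1, the HSP40 that works with HSP70, was 1.87-fold higher in ML. Hspb1 (1.75-fold) and Hspa8 (1.61-fold), by contrast, were higher in LP. So were Hsph1 (1.48-fold), Hspd1 (1.34-fold) and the inducible HSP90 gene Hsp90aa1 (1.28-fold). Another count compared the LP values of all 4 libraries, WT and mutant, with the ML values of all 4. A gene was counted only where every LP value lay above every ML value, or every one below. By it 18 immediate-early genes were higher in LP, 3 were higher in ML (Atf3, Klf6 and Socs3) and 6 overlapped. Of the heat-shock genes 4 were higher in LP, 3 in ML and 4 overlapped. An overlap can arise between genotypes and does not mean that the classes changed order within a library. Of all genes 38% were higher in LP and 21.1% in ML by this count. LI cells lay between LP and ML for 22 of the 27 immediate-early genes and 5 of the 11 heat-shock genes. The sign of the LP to ML ratio was the same in the mutant pool for 26 of the 27 and 11 of the 11 genes, Klf2 being the exception.

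**Figure D2:**
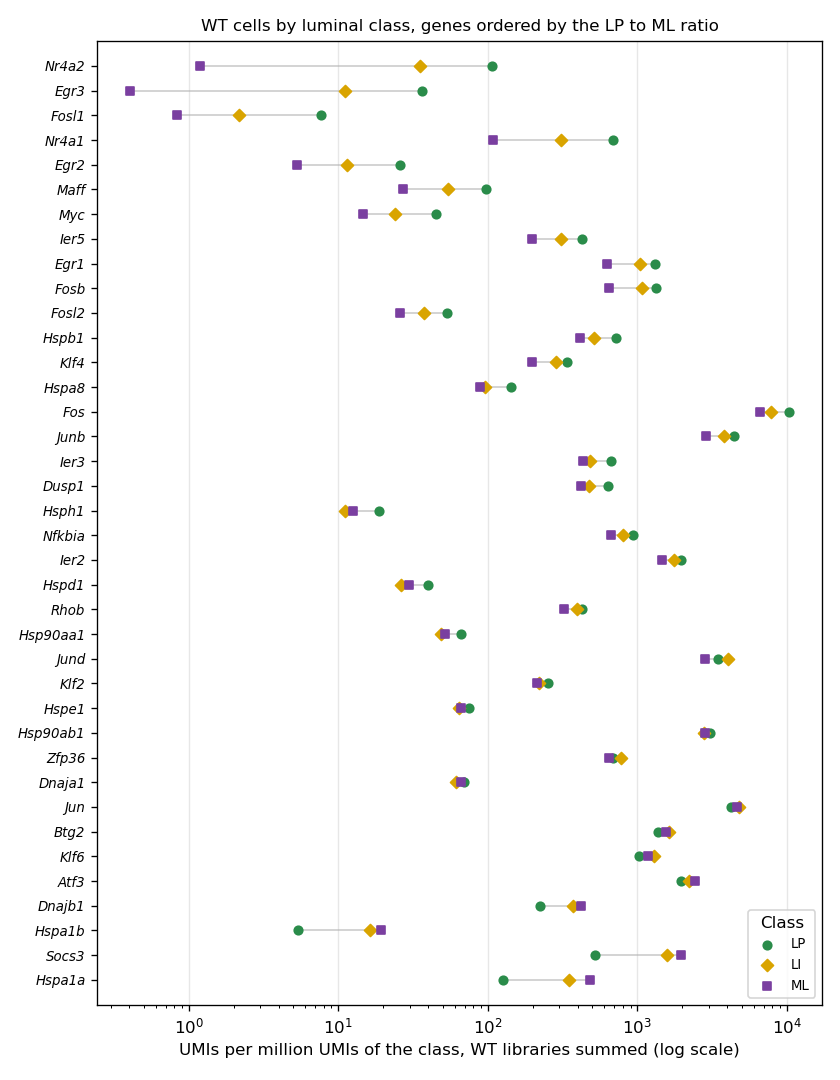
Level of each gene in WT cells of the LP (circle), LI (diamond) and ML (square) class, in UMIs per 1000000 on a log axis, ordered by the ratio of LP to ML. Nr4a2 and Egr3 at the top are 90.1-fold higher in LP, and Hspa1a at the bottom is 3.8-fold higher in ML.

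The summed immediate-early level spread more widely over the clusters than over the classes. The summed immediate-early share of the WT pool was 4.10% of UMIs in cluster 1, the larger LP cluster, but 2.55% in cluster 2, the LP cluster that the study marks by the cell cycle gene Mki67. Among the ML clusters it was 3.52% in cluster 11 and 3.26% in cluster 7, and 2.17% in cluster 5 and 2.37% in cluster 6. Fos was highest in cluster 1 (11285 CPM) and lowest in cluster 5 (4575 CPM). Jun, Atf3, Socs3 and Hspa1a were highest in cluster 11, with 6121, 2691, 2143 and 610 CPM. Hspa1b was highest in cluster 9 (32.3 CPM), the cluster with the fewest UMIs per cell (median 1532 in WT). That value rests on few UMIs from 441 WT cells, and cluster 11 came next at 22.9 CPM. Hspd1, which encodes the mitochondrial chaperonin, was highest in cluster 5 at 49.3 CPM. Neighbors in the order of clusters often overlapped. For Fos the WT libraries overlapped in 6 of the 10 neighboring pairs, and for Hspe1, Hsph1 and Dnaja1 in 9 of the 10.

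Between the genotypes the summed immediate-early level was lower in the mutant in every class. The summed immediate-early level was 3.74% of UMIs in WT and 3.00% in mutant LP cells, a log2 ratio (mutant over WT) of -0.32 with a range over the 4 library pairs of -0.34 to -0.29. In LI cells it was 3.53% against 2.81% (log2 ratio -0.33, pairs -0.39 to -0.27), and in ML cells 3.01% against 2.57% (log2 ratio -0.23, pairs -0.27 to -0.18). No library of the mutant reached a library of the WT in any class. Across all cells the log2 ratio was -0.24 (pairs -0.28 to -0.20). Fos accounted for 23.0% of that difference in CPM, Jun for 19.1%, Junb for 13.5%, Atf3 for 9.21% and Jund for 7.25%. In the same order these genes made up 22.8%, 14.7%, 10.1%, 7.48% and 9.66% of the summed WT level. Without cluster 11 it was -0.22. The share of UMIs a gene takes falls when other genes rise, so these are relative levels. In LP cells the summed progenitor markers were also lower in the mutant (2980 and 2953 CPM against 3277 and 3298 CPM), as were the mature luminal markers (456 and 525 CPM against 593 and 586 CPM), and the basal markers were higher (37.5 and 32.6 CPM against 21.6 and 27.7 CPM). In LI cells the progenitor markers (887 and 1009.9 CPM against 1189 and 1218 CPM) and the mature luminal markers (2425 and 2678 CPM against 2860 and 2970 CPM) were lower in the mutant, and the proliferating (123 and 138 CPM against 98.1 and 78.7 CPM) and basal markers (34.4 and 33.6 CPM against 22.3 and 23.7 CPM) higher. In ML cells the mature luminal (3243 and 3495 CPM against 3850 and 4028 CPM), fibroblast (5.43 and 4.38 CPM against 15.0 and 13.8 CPM) and basal markers (14.7 and 13.8 CPM against 15.1 and 17.4 CPM) were lower, and the proliferating (299 and 282 CPM against 258 and 269 CPM) and immune markers (6.11 and 4.63 CPM against 2.62 and 4.05 CPM) higher. The general luminal markers Epcam, Krt8 and Krt18, summed, were higher in mutant LI cells (11206 and 11184 CPM against 10637 and 10738 CPM). They were also higher in mutant ML cells (12568 and 12424 CPM against 11730 and 11770.5 CPM) and overlapped in LP cells. The part of all these markers in the result was not tested.

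Gene by gene the differences rarely reached a fold of 1.5. A gene was called where its level differed at least 1.5-fold, the genotype with more had at least 50 UMIs, and both mutant libraries lay beyond both WT libraries. At least 50 UMIs in a genotype were reached by 38 of the 38 genes over all cells and in LP cells, 37 in LI cells (not Fosl1) and 36 in ML cells (not Fosl1 and Egr3). Over all cells 0 of the 38 genes were called higher and 0 lower, where 3.24% and 1.18% of the 16403 genes with enough UMIs were. In LP cells 2 genes were called lower and 2 higher, against 0.606% and 2.23% of genes. In LI cells 1 gene was called higher and 0 lower, against 2.83% and 1.03%, and in ML cells 0 and 0, against 2.88% and 1.58%.

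The genes called lower in LP cells were Klf2 and Fosl1. Klf2, a Krüppel-like factor known from quiescent cells, had 243 and 262 CPM in WT and 151 and 148 CPM in the mutant. The mutant libraries were nearly equal and well below the WT ones. Its log2 ratio was -0.76 (95% interval -0.86 to -0.66), and in LI and ML cells it was -0.35 and -0.28. Fosl1, which encodes FRA-1, rested on 65 WT and 41 mutant UMIs, with 8.18 and 7.14 CPM in WT and 4.30 and 5.08 CPM in the mutant (log2 ratio -0.69, interval -1.29 to -0.11). As a mean over cells, in place of a sum of UMIs, the log2 ratio of Fosl1 was -0.40. Fosl1 was not called by that measure, without either WT library or with a minimum of 100 UMIs. Other LP members close to the threshold were Klf4 at -0.54, Atf3 at -0.53 and Maff at -0.52.

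A second count, chosen after the data had been seen, asked only whether the libraries of the genotypes overlapped, without a fold. By it most of the immediate-early genes were lower in the mutant, a share above that of all genes. Over all cells 19 of the 27 were lower and 4 higher, where 22.5% of all genes were lower and 31.8% higher. In LP cells 22 were lower and 2 higher (18.1% and 23.1% of all genes), in LI cells 22 were lower and 1 higher of 26 with enough UMIs (22.5% and 23.2%), and in ML cells 17 were lower and 3 higher of 25 (26.8% and 27.7%). Among genes with at least the UMIs of the lower quartile of the 38 genes, 31.6% were lower over all cells, 22.9% in LP, 26.1% in LI and 33.1% in ML cells. The median log2 ratio of the 27 genes was -0.18 over all cells, -0.30 in LP, -0.30 in LI and -0.21 in ML cells, against 0.02, 0.02, 0.00 and 0.00 for all genes. The 6 most abundant immediate-early genes, Fos, Jun, Junb, Jund, Atf3 and Socs3, were lower in both mutant libraries in all 3 classes. Their log2 ratios in LP cells were -0.26, -0.42, -0.34, -0.30, -0.53 and -0.44, and in ML cells -0.24, -0.29, -0.35, -0.18, -0.25 and -0.12.

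Zfp36, Nfkbia, Dusp1, Btg2, Klf4, Klf6, Egr1, Rhob and Ier5 were lower in both mutant libraries in LP cells. Zfp36, which speeds the decay of mRNAs with AU-rich ends, had 681 and 692 CPM in WT LP cells and 535 and 556 CPM in mutant LP cells (log2 ratio -0.33). Nfkbia, the inhibitor of NF-κB, had 943.2 and 918 CPM against 773 and 745 CPM (log2 ratio -0.30), and Dusp1 had 630 and 633 CPM against 531 and 558 CPM (log2 ratio -0.21). In ML cells Zfp36 and Nfkbia were lower by log2 ratios of -0.24 and -0.11, and the libraries overlapped for Dusp1 at -0.11. Btg2, an inhibitor of proliferation, differed by about the same in each class, with log2 ratios of -0.27 in LP, -0.30 in LI and -0.29 in ML cells. Klf4 and Klf6 differed more by class. Klf4 had 334 and 344 CPM in WT LP cells and 220 and 246 CPM in the mutant, and its log2 ratio of -0.54 there stood beside -0.08 in ML cells. Klf6 had 994 and 1046 CPM against 741 and 754 CPM in LP cells (log2 ratio -0.45), and in ML cells its libraries overlapped at -0.03. Egr1, the best known EGR factor, had 1302 and 1337 CPM against 1107 and 1108 CPM in LP cells (log2 ratio -0.25) and a log2 ratio of -0.21 in ML cells. Rhob, a small GTPase, had log2 ratios of -0.41 in LP and -0.24 in ML cells, and Ier5 had -0.23 in LP cells and an overlap in ML cells. These differences between classes were not tested.

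Besides Dusp1, Klf6 and Ier5 above and Egr2 below, other immediate-early genes were higher in the mutant or overlapped in 1 or more classes. Fosl2 had 24.5 and 26.8 CPM in WT ML cells and 33.7 and 36.9 CPM in mutant ML cells, a log2 ratio of 0.46 (interval 0.36 to 0.56), while in LP cells its libraries overlapped at -0.02. Myc, the growth regulator, had 13.4 and 15.6 CPM in WT ML cells and 18.6 and 19.4 CPM in the mutant (log2 ratio 0.38), and 0.08 in LP cells. In LI cells Fosl2 was higher in the mutant by 0.29, and Myc overlapped at -0.02. Ier3 was higher in mutant ML cells by 0.15 and overlapped in LP and LI cells. Nr4a1 and Nr4a2 overlapped in ML cells, and in LP cells both were lower in the mutant, with log2 ratios of -0.19 and -0.43. Egr3 overlapped in LP cells (38.6 and 34.6 CPM in WT, 37.5 and 32.8 CPM in the mutant).

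**Figure D3:**
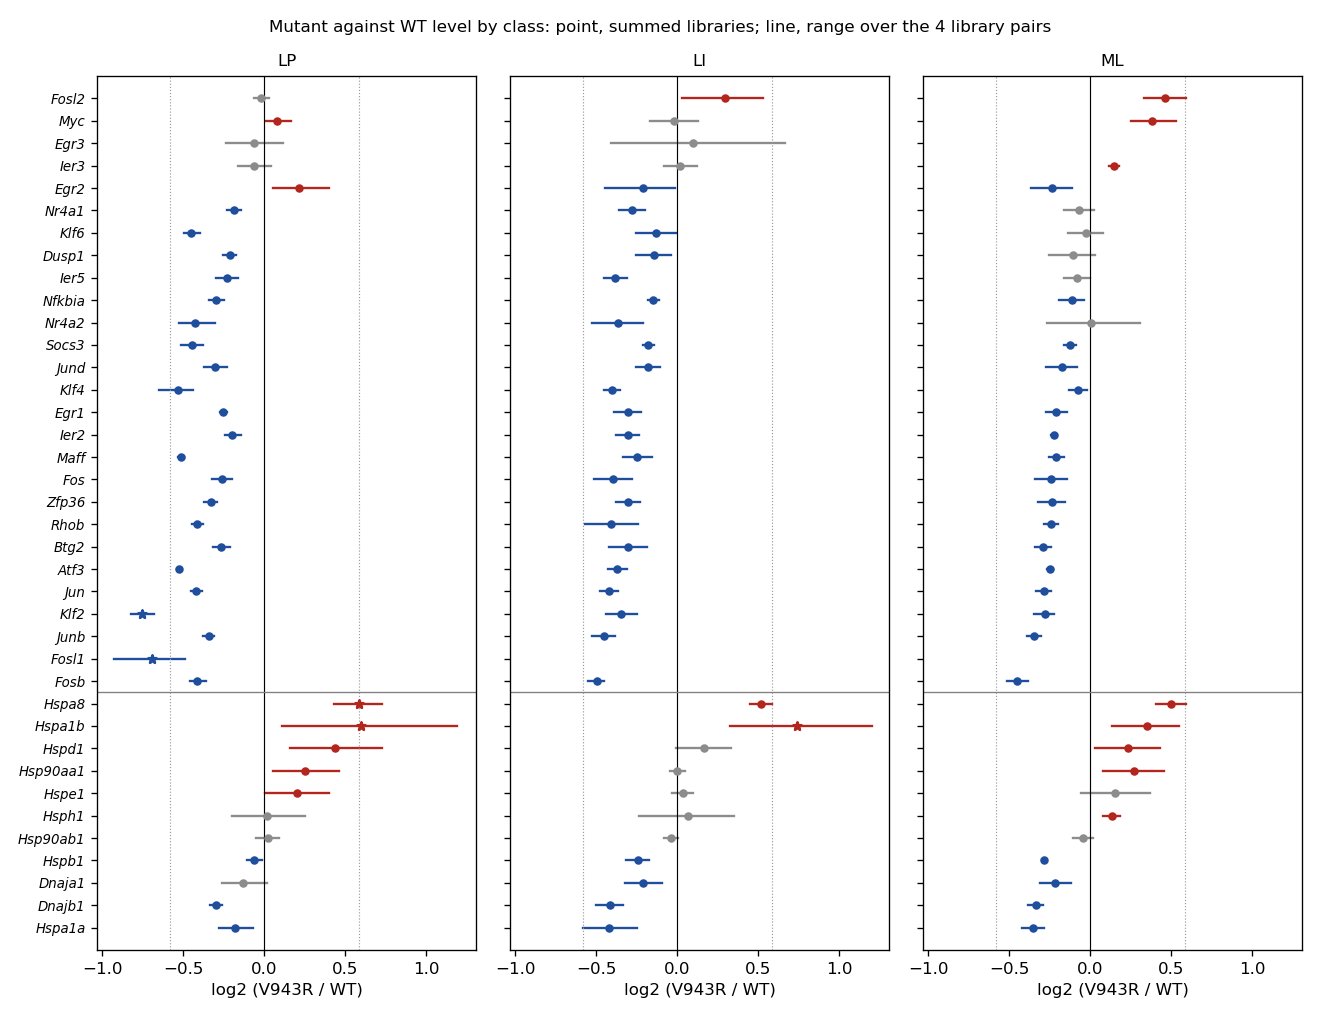
Log2 ratio of the mutant over the WT level of each gene in LP, LI and ML cells, with points for the summed libraries and lines from the lowest to the highest of the 4 library pairs. Blue marks genes with both mutant libraries below both WT libraries, red the reverse, grey an overlap, stars the called genes and dotted lines a fold of 1.5, and genes under 50 UMIs are left out. Most immediate-early genes above the grey line are blue in every class, and the heat-shock genes below it fall on both sides.

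The lower immediate-early level was seen cluster by cluster. In each of clusters 1 to 11 both mutant libraries lay below both WT libraries, with log2 ratios from -0.34 in cluster 9 to -0.13 in cluster 6. Cluster 1 was at -0.32 and cluster 2 at -0.30. In cluster 13, the rare immune cells, with 83 WT and 81 mutant cells, both mutant libraries were lower as well (1.69% and 2% against 2.13% and 2.19%, log2 ratio -0.24). In cluster 12, with 43 WT and 33 mutant cells, the libraries overlapped. Of the 297 values of 27 genes in 11 clusters, 240 were lower in the mutant and 54 higher, and 182 were lower without overlap of libraries against 18 higher. The share of all genes lower without overlap in those clusters was 17.4% to 26%, and the share higher was 18.4% to 23.3%. Fosb, Jun, Junb, Atf3, Ier2, Zfp36 and Socs3 were lower without overlap in all 11 clusters. Fosl2 and Myc were higher in 10 of the 11 clusters by their summed level, and without overlap in 6 and 5.

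**Figure D4:**
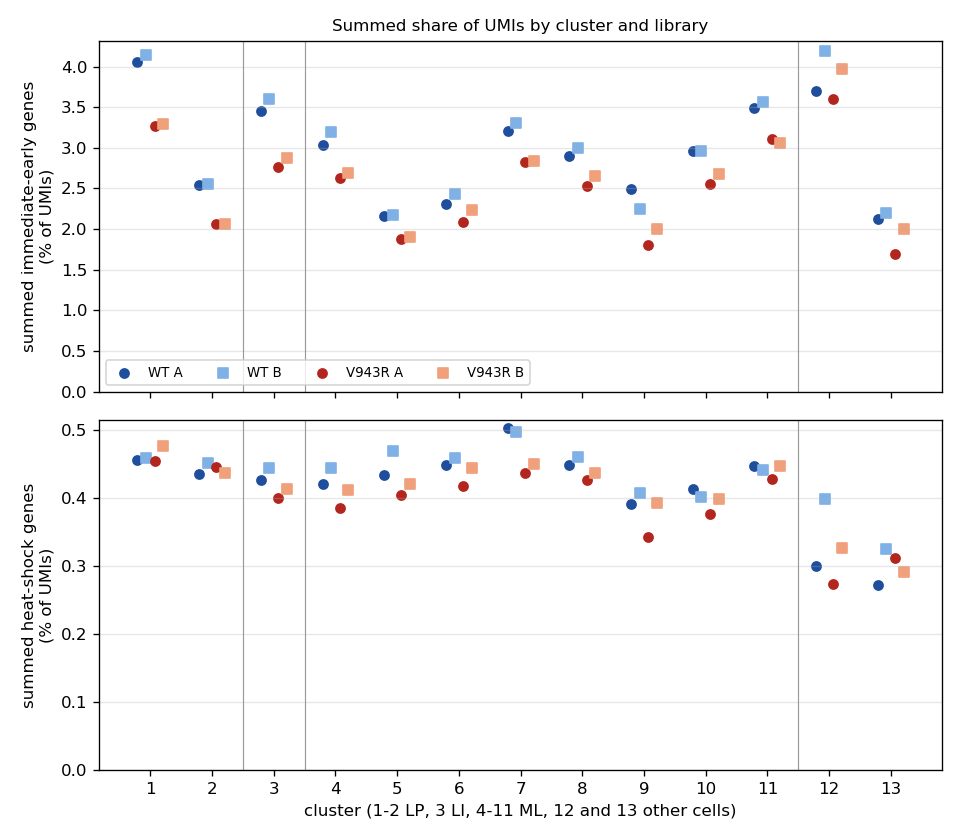
Summed immediate-early (top) and heat-shock (bottom) genes as a percentage of the UMIs of each cluster in the 4 libraries. For the immediate-early genes the blue WT points lie above the red mutant points in clusters 1 to 11. They go from 4.10% against 3.28% in cluster 1 to 2.17% against 1.89% in cluster 5. For the heat-shock genes the WT points lie above the mutant points in clusters 3 to 8 and 10 and mix with them in the others.

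The heat-shock genes moved in opposite directions. Over all cells 5 of the 11 were higher and 4 lower without overlap of libraries, in LP cells 5 and 3, in LI cells 2 and 4, and in ML cells 5 and 4, against the shares of all genes given above. Their summed log2 ratio was -0.08 over all cells, -0.10 in LI and ML cells, and 0.02 in LP cells, where the libraries overlapped. By cluster their sum was lower in the mutant without overlap in clusters 3 to 8 and 10, and overlapped in clusters 1, 2, 9 and 11. Hspa8, the constitutive HSC70 chaperone, had the highest ratio over all cells. It had 100.6 and 91.9 CPM in WT and 136 and 143 CPM in the mutant over all cells, a log2 ratio of 0.54 (interval 0.50 to 0.59). In LP cells, where it was called, it had 151 and 135 CPM in WT and 204 and 224 CPM in the mutant (log2 ratio 0.59, interval 0.48 to 0.69), and the ratio was 0.52 in LI and 0.50 in ML cells. Hspa8 was higher in the mutant in all 11 clusters, and without overlap in 10. The LP call was lost with TMM factors in place of library totals (log2 ratio 0.56), with means over cells (0.52), and without WT library B or mutant library B (0.51 each). Hspd1 had log2 ratios of 0.44 in LP and 0.23 in ML cells, and Hsp90aa1, the inducible HSP90, of 0.25 and 0.27. For both the mutant library A was the higher, with Hsp90aa1 at 70.1 CPM against 56.5 CPM in library B and 52.8 and 53.5 CPM in WT. Hspa8, Hspd1, Hspe1 and Hsp90aa1 have processed pseudogenes, and how the counting placed reads that match several copies is not given in the sources used here.

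The inducible genes Hspa1a and Dnajb1 were among the lower ones. Hspa1a had 417 and 434 CPM in WT and 315 and 334 CPM in the mutant over all cells (log2 ratio -0.39, interval -0.42 to -0.37). Dnajb1 had 392 and 385 CPM in WT and 297 and 307 CPM in the mutant (log2 ratio -0.36). Hspb1 had 457 and 457 CPM in WT and 396 and 398 CPM in the mutant (log2 ratio -0.20). All 3 were lower without overlap in each class, at -0.18, -0.30 and -0.06 in LP and -0.35, -0.34 and -0.29 in ML cells. Dnaja1, another HSP40, was lower in LI and ML cells (-0.21 and -0.22).

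Hspa1b went the other way from its near copy Hspa1a. Over all cells it had 16.1 and 18.5 CPM in WT and 20.9 and 24.2 CPM in the mutant (log2 ratio 0.38, interval 0.27 to 0.49). It was called higher in LP cells, on 46 WT and 71 mutant UMIs, with 4.21 and 6.47 CPM against 9.62 and 6.98 CPM (log2 ratio 0.60, interval 0.04 to 1.17), and it was not called in LP cells without WT library A, mutant library A or mutant library B, with TMM factors, with means over cells or with a minimum of 100 UMIs. It was also called higher in LI cells, with 12.8 and 19.8 CPM against 24.9 and 29.4 CPM (log2 ratio 0.74, interval 0.41 to 1.07), and without WT library A that call was lost. Both genes lie in tandem on the minus strand of chromosome 17, Hspa1a at 34969190 to 34972156 and Hspa1b at 34956436 to 34959238 (GRCm38). Their coding sequences are 99.5% identical, but the transcript after the stop codon is 810 bases long in Hspa1a and 643 in Hspa1b with 51.4% of aligned positions identical, and the last 300 bases are 52.8% identical. Where the reads of each gene fell was not examined, reads from the shared part could be assigned to either, and the level of Hspa1b, at 17.3 CPM against 426 CPM for Hspa1a in WT, is uncertain for that reason.

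The promoters of the pair hardly differ, which is why they are printed together. The 150 bases before the start of Hspa1a (chr17:34972157-34972306, minus strand) and of Hspa1b (chr17:34959239-34959388, minus strand) share 149 bases. The 150 bases before the second annotated start of Hspd1 (chr1:55087933-55088082, minus strand) are given as a heat-shock promoter with several elements, and Hspe1, its co-chaperonin, starts nearby in the opposite direction. Capitals mark GAANNTTC and TTCNNGAA, pairs of the inverted unit of a heat-shock element, and CCAAT on either strand. The 150 bases before the first annotated start of Hspd1 (chr1:55088244-55088393, minus strand) held none of these and are not printed.
Hspa1a: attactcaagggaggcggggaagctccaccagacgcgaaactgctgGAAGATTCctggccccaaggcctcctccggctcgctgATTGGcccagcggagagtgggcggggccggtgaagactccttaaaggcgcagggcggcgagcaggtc
Hspa1b: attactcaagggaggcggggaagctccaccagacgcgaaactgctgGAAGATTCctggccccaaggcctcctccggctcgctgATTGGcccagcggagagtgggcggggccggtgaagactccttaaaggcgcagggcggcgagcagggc
Hspd1: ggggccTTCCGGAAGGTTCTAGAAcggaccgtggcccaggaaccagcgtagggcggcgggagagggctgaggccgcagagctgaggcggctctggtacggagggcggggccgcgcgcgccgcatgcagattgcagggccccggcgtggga
GAANNTTC, which reads the same on both strands, was in the windows of 7 of the 8 heat-shock genes with a window, all but Dnajb1, and in 2 of the 22 immediate-early genes (Fosl2 and Jun), against 9.04% of all genes. TTCNNGAA, which can overlap it, was in 3 of the 8 (Hsph1, Hspe1 and Hspd1) and in Egr2, against 9.60%. CCAAT was in 6 of the 8 heat-shock and 9 of the 22 immediate-early windows, against 41.1%. The genes with GAANNTTC included Hspa1a and Hspb1, which were lower in the mutant, and Hspa1b and Hspd1, which were higher.

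To compare single cells at 1 depth, 1000 UMIs were drawn from every cell, and 45 WT and 252 mutant cells with fewer UMIs were dropped. Of the LP cells 1586 of 1614 and 1563 of 1567 were kept in WT, and 1407 of 1517 and 1543 of 1606 in the mutant. The LP sets compared below were thus trimmed unequally. The median LP cell held 38 and 39 immediate-early UMIs of 1000 in WT and 29 and 30 in the mutant. In LI cells the medians were 35 and 37 against 28 and 28, and in ML cells 30 and 31 against 25 and 26. In LP cells the low end of the distribution differed most in proportion, with a 10th percentile of 17 and 18 UMIs in WT and of 10 and 10 UMIs in the mutant, while the 90th percentile was 64 and 68 against 57 and 59. As a share of all UMIs of a cell, the 90th percentile of LP cells was 3.60 and 3.61 times the 10th in WT and 5.95 and 6.18 times in the mutant, and at the 99th percentile the libraries overlapped (8.44% and 9.10% in WT, 8.17% and 8.54% in the mutant). A limit of 10 UMIs of 1000, chosen after the data had been seen, marked 3.34% and 4.09% of WT LP cells and 11% and 11.7% of mutant LP cells, with exact intervals that together span 2.51% to 5.20% and 9.43% to 13.4%. In the cycling cluster 2 it marked 8.86% and 7.77% of WT and 25.2% and 21.5% of mutant cells, in LI cells 1.81% and 1.12% against 3.46% and 3.70%, and in ML cells 5.19% and 5.24% against 8.88% and 8.11%. Clusters 5 and 6 are the ML clusters that the study marks by Mki67. In cluster 5 the limit marked 12.7% and 9.95% of WT and 17.5% and 14.7% of mutant cells. In cluster 6 the libraries overlapped, with 12.5% and 8.87% of WT and 8.78% and 9.66% of mutant cells. The limit cuts a continuous range, and 46 to 127 LP cells per library held 8 to 12 such UMIs. The low LP cells of the mutant had median mitochondrial shares of 0.249% and 0.332% against 0.203% and 0.216% in the other LP cells of the same libraries, those of WT had 0.298% and 0.201% against 0.206% and 0.199%, and the low mutant cells had median depths of 2142 and 2093 UMIs against 2030 and 2245. What part these play was not tested.

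**Figure D5:**
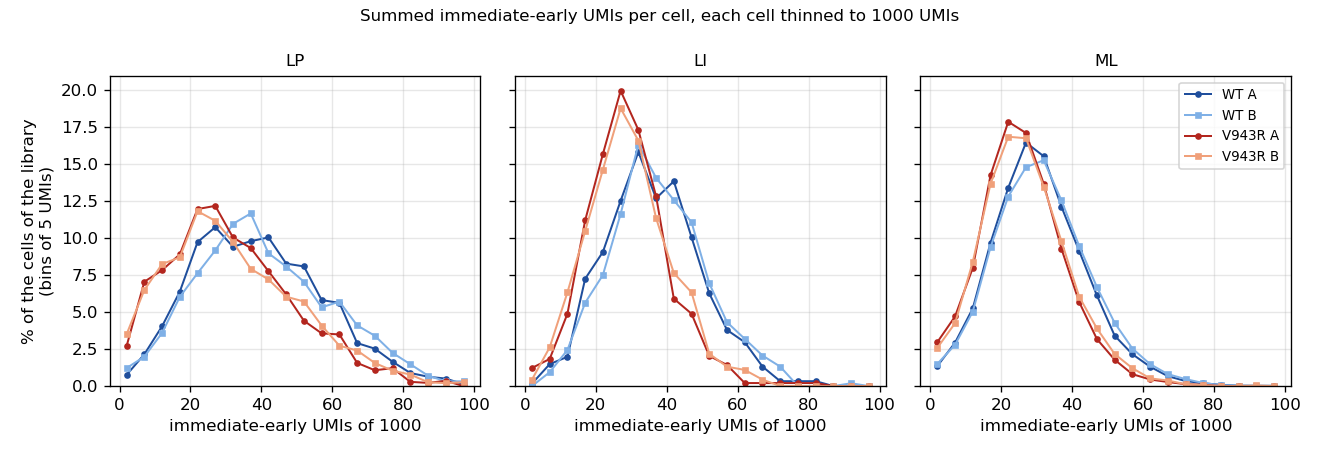
Percentage of the cells of each library by the number of immediate-early UMIs among 1000 UMIs, in bins of 5, for LP, LI and ML cells. The mutant curves (red) peak to the left of the WT curves (blue) in LI and ML cells. In LP cells WT library A and mutant library A peak in the same bin of 25 to 29 UMIs, and the median goes from 38 and 39 to 29 and 30 UMIs.

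Most cells held Fos whatever their genotype. After thinning 98.6% of WT LP cells (interval 98.1% to 99%) and 96.3% of mutant LP cells (95.6% to 97.0%) had a Fos UMI, against 99.2% and 98.0% before thinning. Fos UMIs were also found in 74.7% and 68.8% of thinned cells of cluster 13, the rare immune cells (median 1899 and 1720 UMIs), and since Fos is used by most cell types, no class here gives the share that free RNA alone would. The class-bound genes were sparse even where they were highest. Nr4a2 had a UMI in 10.1% of thinned WT LP cells and 7.73% of thinned mutant LP cells (19.5% and 16.7% unthinned), against 0.0917% and 0.189% of ML cells. Egr3 had one in 3.27% and 3.76% of LP cells (8.33% and 8.52% unthinned), against 0.0494% and 0.0629% of ML cells. Klf2 had one in 16.6% of thinned WT and 10.6% of thinned mutant LP cells (30.1% and 21.3% unthinned), and Hspa8 in 13.1% and 19.3% (30.5% and 40.4% unthinned). Before thinning, at median depths of 3508 UMIs in WT and 4070 UMIs in the mutant, the ML shares were 0.444% and 0.541% for Nr4a2 and 0.162% and 0.208% for Egr3, below the LP shares at median depths of 2018 and 2067 UMIs.

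The share of immediate-early mRNA also differed by the depth of a cell. Cells were split into 5 equal groups by their UMIs, from 606 to 2207 UMIs in the lowest to 5485 to 49679 in the highest. In WT the summed share fell from 3.69% in the lowest group to 2.90% in the highest, and in the mutant from 2.96% to 2.5%. These groups mix the classes, and 1784 of the 3671 WT cells of the lowest group were LP cells. In LP cells the share was also highest in the lowest group and lowest in the highest (4.24% and 3.06% in WT, 3.49% and 2.57% in the mutant). In WT ML cells it was 3.25% in the lowest group, highest in the second (3.48%) and 2.75% in the highest group. In mutant ML cells the lowest group had the lowest share (2.16%, against 2.93%, 2.92%, 2.55% and 2.41% in the next groups), and in WT LI cells the third group had the highest (4.16%). Mutant LI cells had the lowest share in the lowest group (2.29%, on 19 cells) and the highest in the fourth (3.37%). The mutant was lower in each of the 5 groups, with log2 ratios of -0.31, -0.27, -0.14, -0.17 and -0.22 from the lowest to the highest depth. In LP cells the ratio stayed between -0.39 and -0.25. In ML cells it was -0.59 in the lowest group and between -0.25 and -0.12 in the others, and in the fourth group the libraries overlapped (2.64% and 2.89% in WT, 2.40% and 2.67% in the mutant). The heat-shock genes stood at 0.427% to 0.455% of UMIs in the 5 groups of WT cells.

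The wider pathways were read from lists of other genes. Of 44 further immediate-early genes, 42 were in the table and 39 had enough UMIs over all cells. Of these 2 were called higher and 0 lower, against 3.24% and 1.18% of all genes. Without a fold, 15 were higher and 13 lower without overlap of libraries over all cells, against 31.8% and 22.5% of all genes. In LP cells 10 were higher and 18 lower of 38 (23.1% and 18.1% of all genes), in LI cells 9 and 13 of 35 (23.2% and 22.5%), and in ML cells 12 and 14 of 37 (27.7% and 26.8%). Sgk1, a kinase induced by growth factors and steroids, had 131 and 138 CPM in WT and 202 and 218 CPM in the mutant (log2 ratio 0.65), and was called in LI (0.67) and ML cells (0.71). Ctgf, a matricellular growth factor and target of YAP, had 1.85 and 1.74 CPM in WT and 2.70 and 3.8 CPM in the mutant (log2 ratio 0.87), and 0.68 in LP cells. Tnfaip3, an inhibitor of NF-κB, was the gene called lower in LP cells, with 14.4 and 10.9 CPM against 7.85 and 6.34 CPM (log2 ratio -0.84). The median log2 ratio of the 39 genes was -0.01 over all cells, and of the 38 with enough UMIs in LP cells -0.16, against 0.02 for all genes in both. Of 36 other chaperones and co-chaperones 0 of 35 were called in either direction over all cells, with a median log2 ratio of -0.03. Without a fold, 4 were higher and 10 lower over all cells, 4 and 7 of 35 in LP, 1 and 11 of 34 in LI and 2 and 13 of 35 in ML cells, beside the same shares of all genes (31.8% and 22.5% over all cells, 23.1% and 18.1% in LP, 23.2% and 22.5% in LI and 27.7% and 26.8% in ML cells). Of 31 regulators upstream of the 38 genes, among them the ERK kinases, SRF, CREB1 and HSF1, 29 were tested and only Erbb3 was called, lower by a log2 ratio of -1.03. The median of those 29 was 0.02. Erbb3 is itself the altered gene, and of all genes 3.24% were called higher and 1.18% lower. Without a fold, 9 of the 29 were higher and 3 lower over all cells, against 31.8% and 22.5% of all genes. In LP cells 2 and 4 of 28 were higher and lower, in LI cells 5 and 6 of 26 and in ML cells 7 and 4 of 27, beside the class shares above.

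Levels of the immediate-early genes tracked each other across clusters and libraries more than those of the heat-shock genes. Over 44 sums (11 clusters in 4 libraries, on log2(CPM + 1)) the median Pearson correlation of the 351 immediate-early pairs was 0.49, of the 55 heat-shock pairs -0.09 and of the 297 pairs between the lists 0.03. These points share libraries, depth and cell classes, so the correlations are descriptions. Junb and Ier2 were the closest pair at 0.97, followed by Egr3 and Nr4a2 at 0.97, Egr3 and Nr4a1 at 0.96, and Fos and Junb at 0.96. Within the 32 ML sums Fos and Junb kept 0.96, while Egr3 and Nr4a2 dropped to 0.25, where both are near 0. Fos and Jun were at 0.51 over all 44 sums and at 0.91 within ML. Socs3 was opposed to the LP genes, at -0.86 with Nr4a1, but at 0.39 within ML. Hspa1a went with Dnajb1 at 0.89 and with Socs3 at 0.89, and within ML at 0.72 and 0.44. Within the cells of 1 cluster and library, thinned to 1000 UMIs, Fos and Jun had a median correlation of 0.39 over 44 groups and were above 0 in all of them, and Fos and Junb had 0.33. Hspa1a and Dnajb1 had a median of 0.06, and 37 of the 44 groups were above 0. They were far less abundant, at 426 and 388 CPM in WT over all cells against 7152 and 4615 CPM for Fos and Jun. Low counts per cell lower such a correlation, so the strength of these pairs cannot be compared.

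The genes outside the list most like the summed immediate-early level over the 44 sums, of 11672 genes with at least 500 UMIs, were Pfdn5 (r = 0.92), Camk2n1 (0.87), Tcp11l2 (0.84), Rras (0.84) and Zfp467 (0.83). Of the members themselves Junb (0.97), Ier2 (0.95) and Fos (0.91) were closest to the sum and Socs3 (0.00) the farthest, where the sum contains the member itself (22.8% of the WT sum for Fos and 10.1% for Junb). The genes most like the summed heat-shock level were Coro1b (0.79), Cnn2 (0.76), Bhlhe40 (0.76), Anxa5 (0.75) and Esd (0.75). Of the heat-shock members Hsp90ab1 (0.78), which made up 63.9% of the WT sum, and Hspb1 (0.67) were closest to that sum. The others lay between 0.32 (Hspd1) and -0.44 (Hspa1b).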

How the data were processed

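Single-cell RNA-seq libraries of sorted luminal cells were analysed, 2 per genotype from 1 pool of 3 mice each. The submitters' processing notes name GSNAP (2013-10-10), bcl2fastq 2.20, CASAVA 1.8 and the build GRCm38, and the study names Partek Flow and Seurat for the clusters. The authors deposited their values as a signal, scaled cell by cell, together with each cell's library, cluster and class. Since all UMIs of a cell carry the same scale, its lowest nonzero value is worth 1 UMI. Division by it left 100% of 60853305 values within 0.02 of a whole number, and these numbers were taken as UMIs. The library codes match no replicate number of the labels. No cell was left out, no doublet caller was run and no doublets were removed.

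UMIs were summed per library, class or cluster and given as CPM, with exact Poisson intervals for levels, exact conditional binomial intervals for log2 ratios and exact (Clopper-Pearson) binomial intervals for shares (95%). The call rule is a fold of 1.5, at least 50 UMIs and no overlap of libraries. The depth of 30019745 to 38009351 UMIs per library sets the precision. Named in full are the genes that meet the rule and the 8 most abundant members; of the further lists, genes that meet the rule. The members and lists were chosen with earlier results of these data known. Alternatives were each library left out, TMM factors, other cell, cluster and UMI filters, means over cells and a common cluster mix. Cells were thinned with a seed of 1. Python 3.11.15, numpy 2.4.6, pandas 2.3.3, scipy 1.17.1 and matplotlib 3.10.9 were used. Gene positions come from GENCODE M21 and promoter windows from RefSeq (GRCm38.p6).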

Additional observations from a re-analysis of the deposited data

Results flagged for a closer look

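Egr2, a zinc-finger factor, moved in opposite directions by class, and was singled out because all 4 library pairs pointed one way in LP cells and the other way in LI and ML cells. It had 23.8 and 27.7 CPM in WT LP cells and 31.4 and 28.8 CPM in mutant LP cells, a log2 ratio of 0.21. In LI cells it had 11.2 and 11.6 CPM against 11.1 and 8.47 CPM (log2 ratio -0.21), and in ML cells 5.05 and 5.47 CPM against 4.24 and 4.68 CPM (log2 ratio -0.24). The difference between the classes was not tested, and the 95% counting intervals of all 3 ratios include 0.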

How the results depend on the processing

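The summed immediate-early level stayed lower in the mutant under each alternative, with log2 ratios of -0.27 to -0.22 over all cells, -0.35 to -0.29 in LP, -0.36 to -0.30 in LI and -0.25 to -0.19 in ML cells, and none of the summed levels moved by more than the spread between libraries. The immediate-early genes lower without overlap numbered 18 to 22 over all cells, 22 to 24 in LP, 21 to 23 in LI and 16 to 21 in ML cells. The counts by the 1.5-fold rule depend on the threshold. At a fold of 5/4 in place of 1.5, 3 genes were higher and 7 lower over all cells (12.7% and 3.84% of all genes), 3 higher and 13 lower in LP (8.54% and 3.58%), 2 higher and 12 lower in LI (9.9% and 5.78%), and 4 higher and 4 lower in ML cells (11.4% and 5.52%). At a fold of 2, 0 were higher and 0 lower in LP and 0 higher in LI cells. With a minimum of 100 UMIs 1 gene was higher and 1 lower in LP cells. With TMM factors or with means over cells 0 genes were higher in LP cells. With means over cells the genes called lower in LP cells were Klf2 and Maff, and no longer Fosl1. With the WT mix of clusters 1 gene, Fosl1, was lower over all cells. Leaving out each library in turn gave 0 to 1 higher genes over all cells (Hspa8 without WT library A), 1 to 1 higher and 1 to 3 lower genes in LP cells, and 0 to 1 higher genes in LI cells. Without WT library A, Hspa1b and Fosl1 were no longer called in LP cells, without WT library B Hspa8 and Fosl1, without mutant library A Hspa1b, and without mutant library B Hspa8 and Hspa1b, while Hspd1 and Klf4 were called. Klf2 was called in LP cells each time. No paired analysis was possible because the table gives no replicate number for its libraries and no result comes from a test. With 1 pool of mice per genotype, differences between mice, litters and days of dissociation cannot be told apart from the genotype.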
